A study of Mus musculus with 18 samples.

Results

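The very long protein-coding genes expressed in GC1spg cells were followed as a group, those whose locus covers more than 400 kb from the first to the last annotated base. The rule took every gene labelled protein-coding in the deposited count table with a span over 400000 bases and a mean raw count of 20 or more over the 18 libraries. Genes whose names start with Cdh, Pcdh, Cacn, Kcn, Scn, Adamts, Adgr, Adcy, Akap, Sema, Plxn, Pde, Prka, Nrp, Ror or Esr were left out by the rule. It gave 139 genes of the 31643 in the table. Of the 335 protein-coding genes over 400 kb among 17733, 178 had a mean under 20 and 18 were left out by name. The genes were thus chosen by the span and by the measured mean count, so neither is a result.

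GC1spg is a line of immortalized mouse germ cells that stands for spermatogonia and the first spermatocytes. Cells with an siRNA against GFP (siGFP), the control siRNA, were given DMSO (n = 5) or busulfan (Bu, n = 4). Cells with an siRNA against TGR5 (siTGR5), the receptor for bile acids encoded by Gpbar1, were also given DMSO (n = 5) or Bu (n = 4). The study describes Bu at 200 μM for 24 h in GC1spg cells. That treatment is described without any siRNA, so dose and time are not stated for siGFP or siTGR5 cells as such. All groups are 1 cell line carrying an siRNA, and nothing says that the replicates are separate cultures, so p-values measure the spread between these libraries, which may be technical.

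Most of a long gene is intron, and RNA polymerase II needs hours to cross the longest loci. Elongation over such distances depends on topoisomerases, which relax the supercoiled DNA around the polymerase, and on the factors that keep the polymerase moving. A DNA lesion in the transcribed strand can stall the polymerase, and a longer gene offers more bases to hit; Bu is an alkylating agent that makes adducts and crosslinks in DNA. Several very long genes coincide with common fragile sites, regions that break when replication is slowed. These points are background and were not measured here.

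Total counts were 24745523 to 49638166 per library, and no pair of replicates differed by less than the sampling noise. Gpbar1 was low in all groups, at 0.445 to 0.861 CPM (each count relative to the TMM-scaled total of its library) in siGFP DMSO and 0.112 to 0.489 in siTGR5 DMSO. These ranges overlapped, with a log2 fold change of -0.99 ± 0.28 (SE, edgeR adjusted p = 0.0135). Among germ-cell markers, Gfra1 averaged 24.3, Uchl1 60.8, Id4 5.33, Etv5 2.30 and Lin28a 0.599 CPM. Zbtb16, Stra8, Dazl, Nanos2, Nanos3, Ret, Ddx4 and Kit were each under 0.1 CPM. Of the Sertoli and Leydig markers Wt1 averaged 223 CPM, and Cyp11a1 (5.32), Sox9 (3.68), Star (0.495), Amh (0.292) and Insl3 (0.0830) were low. In bulk samples, fewer cells of a type and less RNA per cell cannot be told apart. Transcripts of photoreceptor genes summed to over 3 times the median in 4 libraries (siGFP DMSO 1 and 5, siGFP Bu 2 and siTGR5 DMSO 4).

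The 139 genes spanned 400.2 to 2960.9 kb, with a median of 517.8 kb against 24.4 kb for the 11947 protein-coding genes at the same mean count. Their deposited transcript lengths were much closer to the rest, with a median of 2260.5 bases against 1491. That length is a median over the transcripts of each gene, not the length of the mRNA expressed here. By the GENCODE M21 annotation their principal transcripts (the main coding isoform of each gene) had a median of 18 exons against 9. Exons made up 1.21% of the span at the median. The median first intron was 69.6 kb and the median longest intron 143 kb. Their median mean count was 569 reads against 1317. They lie on every autosome and on the X chromosome. The principal transcript itself spanned over 400 kb in 112 of the 139. In 10 genes (Sox5, Nav3, Arhgap26, B3galt1, Fam110b, Nfib, Slc39a11, Hivep3, Dst and Bnc2) no coding transcript of the annotation did. Another annotated gene lay wholly inside 108 of the loci, and a coding one inside 16, so reads of overlapping genes may be shared where the counting could not separate them.

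Near the span threshold, Bnc2 (400.2 kb), Dst (400.4 kb) and Dock4 (400.9 kb) were just inside, and Plxdc2 (399.5 kb), Adk (396.0 kb) and Itpr2 (393.9 kb) just outside. With Bu the log2 fold changes of the 3 inside were -0.38, -0.13 and -0.29 in siGFP cells and -0.21, -0.08 and -0.43 in siTGR5 cells. For Plxdc2, Adk and Itpr2 they were -0.11, -0.06 and -0.30 in siGFP cells and -0.36, -0.21 and -0.31 in siTGR5 cells. Near the count threshold, Myo16, Sh3gl2 and Hmcn1 were just inside with means of 21.3, 24 and 26.5 reads, and Sugct, Hdac9 and Foxp2 just outside with 18.7, 18.4 and 17.8. Very few reads stand behind the values of these genes.

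In siGFP cells, Bu lowered 67 of the 139 very long genes (48.2%) and raised 4 (2.88%), while 68 were not called. Over all 14304 genes tested, 13.8% were called lower and 14.3% higher, together 28.1% (edgeR quasi-likelihood F-test, Benjamini-Hochberg adjusted p under 0.05). The genes that fell included Slit3, a secreted guidance ligand, Tenm4, a transmembrane adhesion protein of the teneurin family, Pard3b, a polarity scaffold, and Gpc6, a heparan sulphate proteoglycan. The median log2 fold change of the 139 was -0.22, with quartiles of -0.35 and -0.08, against 0.003 over all genes tested. Of the 139, 119 (85.6%) had a value below 0, compared with 49.2% of all genes. Most shifts were small: 15 genes fell by more than 0.5 on the log2 scale and 2 by more than 1. In 55 genes every Bu library was below every DMSO library, and in 4 every Bu library was above. Over all genes tested these shares were 11.9% and 11.6%.

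In siTGR5 cells the loss of mRNA took in more of the genes. Bu lowered 108 of the 139 (77.7%) and raised 3, and 28 were not called, against 15.2% lower and 15.5% higher (30.7% in either direction) over the 14372 genes tested by edgeR. The median log2 fold change was -0.39, with quartiles of -0.53 and -0.21, and 129 genes (92.8%) were below 0, compared with 49.1% of all genes. In 38 genes the fall exceeded 0.5 and in 9 it exceeded 1. The Bu libraries lay wholly below the DMSO libraries in 95 genes and wholly above in 5, against 12.5% and 12.4% of all genes tested.

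The shift could be read in each Bu library. Set against the mean of the DMSO libraries with the same siRNA, the median gene of the 139 was at -0.11, -0.30, -0.22 and -0.16 (log2) in siGFP Bu libraries 1 to 4. In siTGR5 Bu libraries 1 to 4 it was at -0.32, -0.35, -0.41 and -0.41. Each DMSO library, set against the other DMSO libraries of its siRNA, was between -0.08 and 0.07. All Bu libraries were thus below all DMSO libraries on this median, and siGFP Bu 1 was the closest to them. The summed level of the 139 genes was 5626 to 6083 CPM in siGFP DMSO and 4622 to 5632 in siGFP Bu. These ranges met, because siGFP Bu 1 lay just above siGFP DMSO 3. In siTGR5 cells the sums were 5581 to 5762 CPM with DMSO and 4485 to 4680 with Bu, with no overlap.

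**Figure D1:**
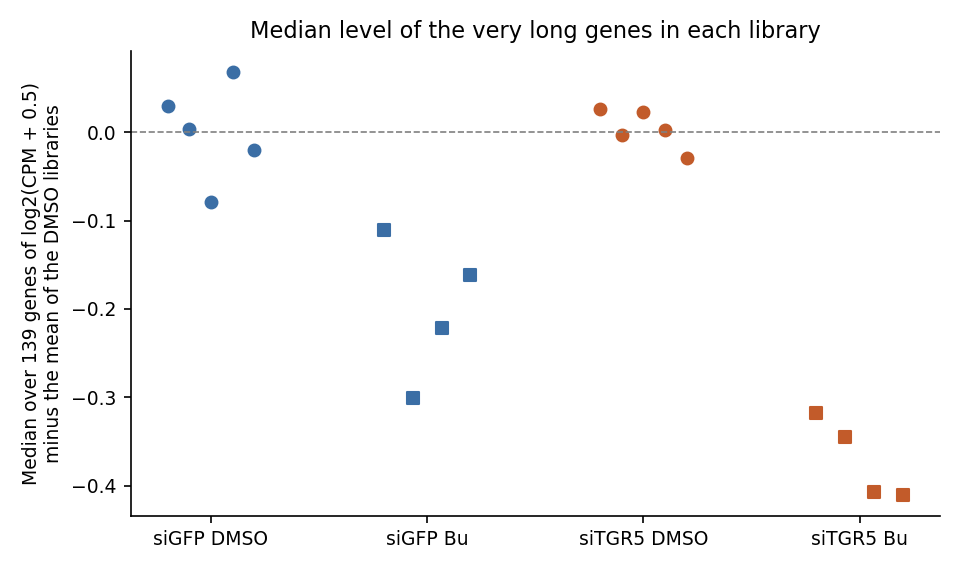
Median over the 139 genes of log2(CPM + 0.5), minus the mean of the DMSO libraries of the same siRNA, or of the other such libraries for a DMSO library (y axis), in the 4 groups (x axis), with 1 point per library. The Bu libraries sat between -0.41 and -0.11 and the DMSO libraries between -0.08 and 0.07.

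The 2 Bu comparisons share no library, and 64 of the 139 genes were called lower in both. Another 44 were lower in siTGR5 cells only by this threshold, 3 (Syn3, Dmd and Trpm3) in siGFP cells only, and 28 in neither. Nrg1 and Diaph3 were higher in both. The values were below 0 in both comparisons for 116 of the 139 genes, and for 36.5% of the 14110 genes tested in both, while 8.52% of the latter were called lower in both. Across the 139 genes the log2 fold changes had a Spearman correlation of 0.65, and across all genes tested in both it was 0.63. Genes are not independent replicates, so these are descriptions.

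**Figure D2:**
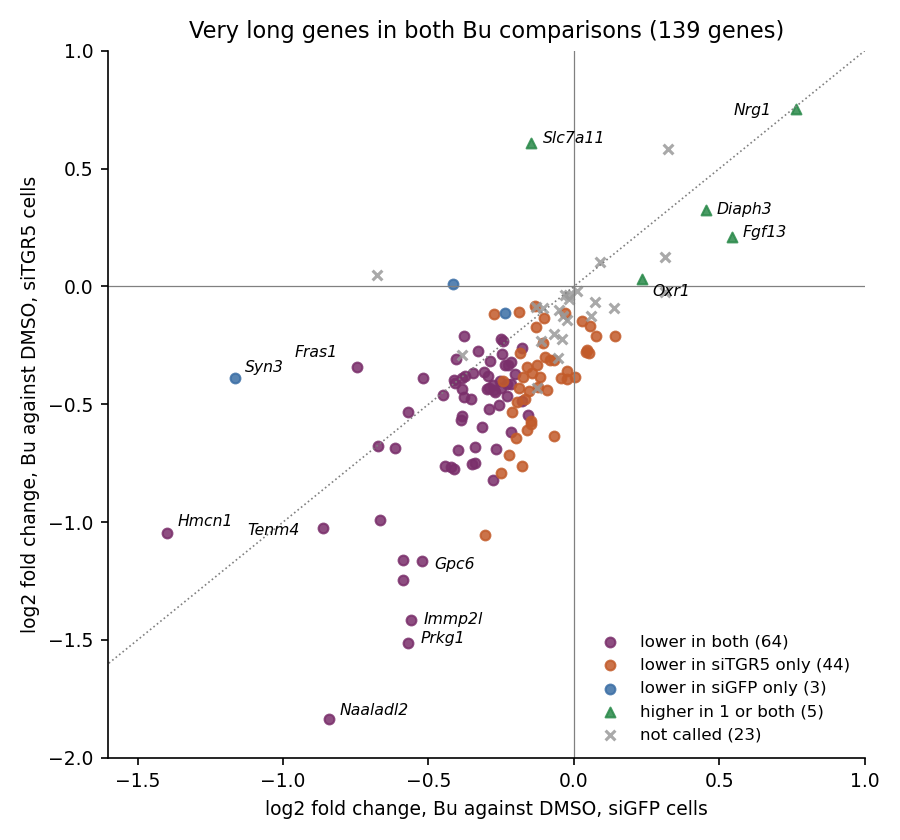
Log2 fold change with Bu in siGFP cells (x axis) and in siTGR5 cells (y axis) for the 139 genes, coloured by call. Of the points, 64 were called lower in both, 44 lower in siTGR5 cells only, 3 lower in siGFP cells only, 5 higher in 1 or both, and 23 were not called.

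From 100 kb upwards the median fall with Bu grew with gene span. Among all protein-coding genes tested in siGFP cells, the median log2 fold change was 0.04 below 10 kb, 0.03 at 10 to 30 kb, 0.01 at 30 to 100 kb, -0.05 at 100 to 200 kb, -0.12 at 200 to 400 kb and -0.24 over 400 kb. The share called lower went from 10.1% in the shortest class to 47.3% in the longest, which here also holds genes left out by name or by the count threshold. In siTGR5 cells the medians were 0.02, 0.03, 0.01, -0.06, -0.19 and -0.39 for the same classes, and the shares called lower went from 9.76% to 75.9%. The order was therefore the same with both siRNAs from 100 kb upwards. Single libraries, set against DMSO libraries of the same siRNA, differed in this gradient. From under 10 kb to over 400 kb, siGFP Bu 2 went from 0.12 to -0.34. In siGFP Bu 1 the values were -0.03 and -0.12, with 0.01 at 100 to 200 kb. Untreated libraries held gradients in both directions. The values went from 0.08 to -0.08 in siGFP DMSO 3, a wider step than in siGFP Bu 1, and from -0.01 to 0.07 in siGFP DMSO 4.

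Over 400 kb the median was below 0 at every level of expression. In siGFP cells it was -0.52 for genes under 2 CPM, -0.22 at 2 to 10 CPM, -0.22 at 10 to 50 CPM and -0.19 at 50 CPM or more. In siTGR5 cells the same classes stood at -0.74, -0.46, -0.36 and -0.33, again all below 0. Medians at 100 to 200 kb and at 200 to 400 kb were also below 0 at each level with both siRNAs. Under 2 CPM, genes shorter than 10 kb stood at -0.06 in siGFP cells and -0.05 in siTGR5 cells. The deposited median transcript length gave small steps over quintiles, which hold many more genes than the class over 400 kb. The median log2 fold change moved from 0.03 in the shortest to -0.04 in the longest quintile in siGFP cells. In siTGR5 cells it moved from 0.02 to -0.02. The 18 genes over 400 kb that were left out by name had medians of -0.31 and -0.35. Of them 10 and 15 were called lower, beside 48.2% and 77.7% of the 139.

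**Figure D3:**
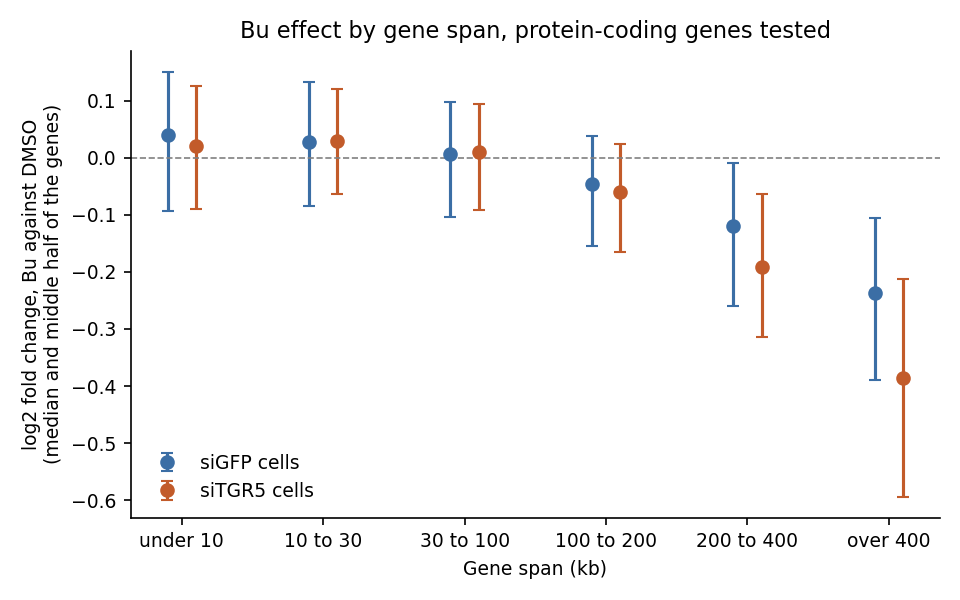
Median log2 fold change with Bu (y axis) of protein-coding genes by gene span in kb (x axis), with bars for the quartiles, in siGFP and siTGR5 cells. The medians lay near 0 below 100 kb and reached -0.24 and -0.39 over 400 kb.

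The 139 genes were also set out by the span of their principal transcript. The 11 genes whose principal transcript covers 200 kb or less had a median of -0.04 in siGFP cells, with 3 higher and 3 lower, and -0.14 in siTGR5 cells, with 2 higher and 4 lower. The 16 genes with one of 200 to 400 kb had medians of -0.24 and -0.32, and the 112 with one over 400 kb had -0.22 and -0.40. In that last class 55 genes fell and 1 rose in siGFP cells, and 91 fell and 1 rose in siTGR5 cells. Of all 139, 48.2% and 77.7% fell. For the 20 genes with a principal transcript over 700 kb the medians were -0.31 and -0.62. Across the 139 genes, the Spearman correlation between log2 fold change and principal span was -0.20 in siGFP cells and -0.29 in siTGR5 cells, against -0.17 and -0.18 for the locus span. These correlations are weak and are given as descriptions.

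**Figure D4:**
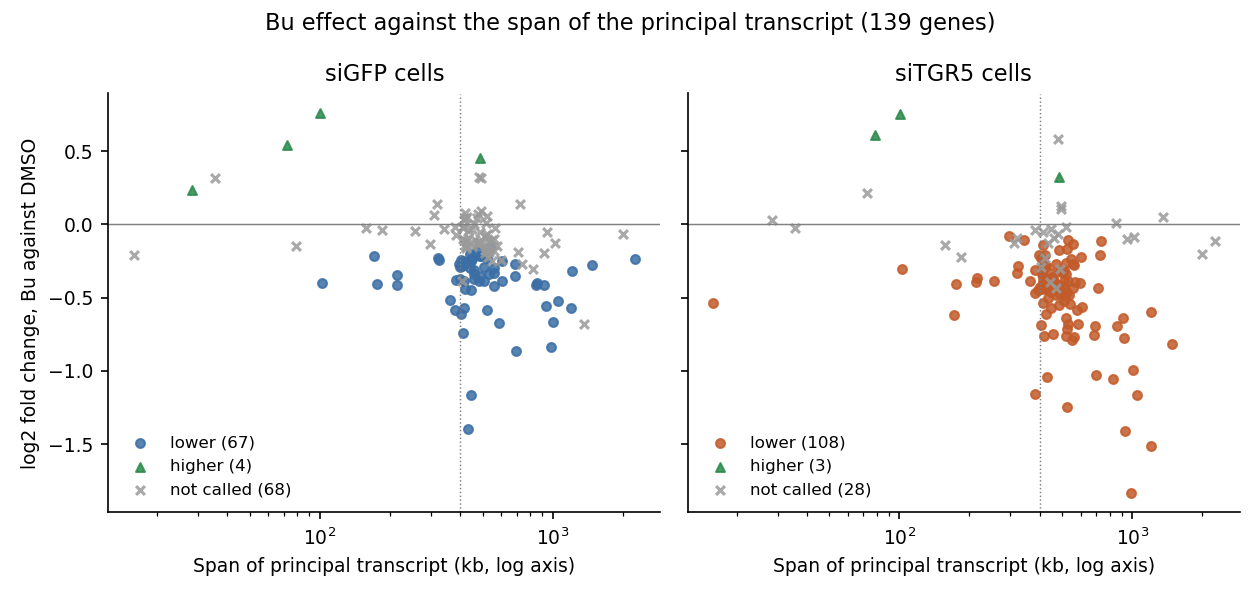
Log2 fold change with Bu (y axis) against the span of the principal transcript in kb on a log axis (x axis) for the 139 genes in siGFP and siTGR5 cells. Genes that rose were mostly those with a principal transcript of 200 kb or less, and the median over 700 kb was -0.31 in siGFP cells and -0.62 in siTGR5 cells.

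Slit3 (chromosome 11, 35121224 to 35708507, GRCm38) encodes a secreted ligand that guides axons and migrating cells through Robo receptors. It was at 189, 185, 193, 203 and 169 CPM in siGFP DMSO and at 121, 112, 124 and 113 CPM in siGFP Bu. With siTGR5 it was at 228, 228, 235, 229 and 222 CPM with DMSO and at 152, 152, 135 and 130 CPM with Bu. The Bu libraries were low throughout, and the groups did not overlap with either siRNA. The log2 fold changes were -0.67 ± 0.05 (SE, edgeR adjusted p = 5.2e-07) and -0.68 ± 0.04 (adjusted p = 3.03e-09). The difference between siRNAs was -0.00 ± 0.07. For Slit3, Tenm4, Gpc6, Pard3b, Nrg1 and Diaph3 the exact two-sided permutation p was 0.00794 in both Bu comparisons, the smallest that 5 against 4 libraries allow.

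The genes of its receptors had values closer to 0 in siGFP cells. Robo1, at 15.1 to 17.2 CPM in siGFP DMSO and 13.7 to 18.1 in siGFP Bu, had a log2 fold change of -0.07, which was not called. In siTGR5 cells Robo1 went from 11.6 to 15.7 CPM to 9.85 to 12.1 CPM, ranges that overlap, with -0.31 ± 0.08 (edgeR adjusted p = 0.00919). Robo2 was near 2 CPM, with -0.18, not called, in siGFP cells and -0.76 ± 0.20 in siTGR5 cells (adjusted p = 0.0086).

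The teneurin Tenm4 (chromosome 7, 96171246 to 96911093), a large transmembrane protein for adhesion between cells, was at 21, 19.6, 19.1, 21.9 and 19.1 CPM in siGFP DMSO. With Bu it was at 12.5, 8.84, 11.2 and 11.5 CPM. In siTGR5 cells the values were 20.9, 19.2, 19.2, 19 and 19.3 CPM with DMSO and 10.9, 10.6, 7.72 and 8.65 CPM with Bu. Every Bu library was well below every DMSO library. The log2 fold changes were -0.86 ± 0.09 and -1.03 ± 0.08 (edgeR adjusted p = 4.48e-06 and 5.17e-08). Tenm3, its paralog, had -0.45 ± 0.08 and -0.46 ± 0.05. Adhesion and guidance genes of this kind were 6 (Kirrel3, Robo1, Robo2, Slit3, Tenm3 and Tenm4). Of these, 3 fell in siGFP cells and all 6 in siTGR5 cells, with medians of -0.35 and -0.72. Among all 139 genes 48.2% and 77.7% fell, and among all genes tested 13.8% and 15.2%.

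The 4 matrix and glycan genes fell with both siRNAs, with medians of -0.63 and -0.80, where 48.2% and 77.7% of the 139 fell. Hmcn1, an extracellular immunoglobulin-domain protein, had the lowest fold change of the 139 genes in siGFP cells, on very few reads. It was at 0.839, 1.06, 1.11, 1.03 and 1.04 CPM in siGFP DMSO and at 0.552, 0.0997, 0.257 and 0.555 CPM in siGFP Bu. The groups were apart, and the log2 fold change was -1.40 ± 0.30 (edgeR adjusted p = 0.00322), with -1.04 ± 0.23 in siTGR5 cells. Gpc6 (chromosome 14, 116925315 to 117976544), a glypican anchored to the cell surface, was far more abundant. Its levels were 10.9, 10.3, 11.1, 10.2 and 10.2 CPM in siGFP DMSO and 7.07, 6.71, 7.08 and 8.36 CPM in siGFP Bu. In siTGR5 cells they were 10, 11.8, 12, 12.5 and 12.7 CPM with DMSO and 5.61, 4.9, 5.09 and 5.26 CPM with Bu. No Bu library reached the DMSO range. Gpc6 thus kept 69.3% of its DMSO mean in siGFP cells and 44.2% in siTGR5 cells, with log2 fold changes of -0.52 ± 0.07 and -1.16 ± 0.08 (edgeR adjusted p = 0.000129 and 9.38e-09).

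Fras1, a basement membrane protein, was at 39.6, 36.4, 40.8, 43.1 and 39.2 CPM in siGFP DMSO and at 26.1, 18.9, 23.4 and 26.1 CPM in siGFP Bu. In siTGR5 cells Fras1 was at 56, 56.9, 61.4, 62.7 and 62.1 CPM with DMSO and at 44.8, 51.4, 48.4 and 43.9 CPM with Bu. The proportional fall was larger in siGFP cells, at -0.75 ± 0.08 (adjusted p = 1.15e-05) against -0.34 ± 0.05 (adjusted p = 4.85e-05).

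The receptor protein tyrosine phosphatases, which remove phosphate from tyrosines at the cell surface, comprised 4 genes. Of these, 3 fell in siGFP cells and all 4 in siTGR5 cells (medians -0.28 and -0.61), beside 48.2% and 77.7% of the 139. Ptprm (chromosome 17, 66666947 to 67354457), which mediates adhesion between like cells, was at 27.1, 29, 26, 27 and 26.7 CPM in siGFP DMSO and at 22.5, 20.3, 21.4 and 20.6 CPM in siGFP Bu. With siTGR5 Ptprm was at 24.3, 25.3, 25.3, 27 and 25.3 CPM with DMSO and at 17.3, 14.9, 14.6 and 13.2 CPM with Bu. The groups were apart with both siRNAs. The log2 fold changes were -0.35 ± 0.05 and -0.75 ± 0.06 (edgeR adjusted p = 0.000123 and 1.41e-07). Ptprg was at 71.6, 69.2, 65.9, 73.4 and 69.4 CPM in siGFP DMSO and at 67.1, 48.4, 53.1 and 62.3 CPM in siGFP Bu, where library 1 lay within the DMSO range. In siTGR5 cells Ptprg was at 64.9 to 70.8 CPM with DMSO and 37.2 to 44.1 CPM with Bu, well apart. Its log2 fold changes were -0.27 ± 0.08 (edgeR adjusted p = 0.0163) and -0.69 ± 0.05 (adjusted p = 4.37e-09). Ptprd had -0.29 ± 0.08 and -0.52 ± 0.05, the first of which was not called without the libraries with photoreceptor transcripts (adjusted p = 0.0687). Ptprk was not called in siGFP cells (0.06 ± 0.04) and had -0.17 ± 0.03 in siTGR5 cells.

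Of the 17 cytoskeletal and scaffold genes, 7 fell in siGFP cells and 11 in siTGR5 cells (medians -0.24 and -0.30). Among the 139, 48.2% and 77.7% fell. Pard3b (chromosome 1, 61638824 to 62642284), a paralog of the polarity scaffold Pard3, was at 33.7, 34, 32.7, 35.4 and 32.7 CPM in siGFP DMSO and at 22.3, 18.3, 22.9 and 21 CPM in siGFP Bu. With siTGR5 Pard3b was at 35.8, 35.1, 36.7, 37.4 and 37 CPM with DMSO and at 21, 20.2, 15.5 and 16 CPM with Bu. The groups were widely apart, with log2 fold changes of -0.67 ± 0.06 and -0.99 ± 0.07 (edgeR adjusted p = 2.05e-06 and 1.79e-08). Pard3 itself moved less, with -0.11, not called, and -0.24 ± 0.03 (adjusted p = 4.8e-05). The junctional scaffold Magi1 went from 42.8 to 45.4 CPM to 32.5 to 35.1 CPM in siGFP cells (-0.39 ± 0.04) and from 39.2 to 41.2 CPM to 24.3 to 29.2 CPM in siTGR5 cells (-0.57 ± 0.05). Its paralog Magi2, with a locus of 1477.8 kb, had -0.28 ± 0.09 and -0.82 ± 0.08. Nav2, a microtubule-associated protein, had -0.52 ± 0.06 and -0.39 ± 0.06. Ank3, the ankyrin G gene, had 0.09 and 0.10, neither called.

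Dst, a plakin that links filament systems and the most abundant of the 139 genes by count, was at 503 to 560 CPM in siGFP DMSO and 374 to 549 in siGFP Bu, with -0.13, not called. In siTGR5 cells its log2 fold change was -0.08 ± 0.03 (edgeR adjusted p = 0.0411), with overlapping groups. Utrn, the utrophin gene, had -0.13, not called, and -0.17 (adjusted p = 0.000277). Dmd, which encodes dystrophin and has a locus of 2257.3 kb, was at 13.2, 13.6, 13.1, 13.1 and 13.5 CPM in siGFP DMSO and at 11.3, 9.67, 11.6 and 12.2 CPM in siGFP Bu. In siTGR5 cells Dmd was at 16.7, 15.3, 17.4, 17.3 and 17.8 CPM with DMSO and at 15.2, 14.6, 16.4 and 16.4 CPM with Bu, ranges that overlap. Its log2 fold changes were -0.24 ± 0.07 (adjusted p = 0.0167, or 0.0980 without the libraries with photoreceptor transcripts) and -0.11 ± 0.06 (adjusted p = 0.167). Dmd, although among the longest loci, was thus nearer to 0 than the median gene in siTGR5 cells.

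The 16 genes with names of kinases, phospholipases, small-GTPase regulators and related signalling proteins had medians of -0.20 and -0.34. In siGFP cells 8 were lower and 2 higher (Nrg1 and Fgf13), and in siTGR5 cells 13 were lower and 1 higher (Nrg1). Lower calls took in 48.2% and 77.7% of the 139. Prkg1 (chromosome 19, 30567551 to 31765033, minus strand) encodes cGMP-dependent protein kinase I. It was at 7.19, 7.85, 6.14, 7.91 and 7.97 CPM in siGFP DMSO and at 5.71, 4.02, 4.48 and 5.58 CPM in siGFP Bu. In siTGR5 cells it was at 9.18, 8.54, 9.54, 9.01 and 8.76 CPM with DMSO and at 4.11, 3.32, 2.43 and 2.57 CPM with Bu. The groups did not overlap with either siRNA, and the siTGR5 Bu libraries were the lowest of all. Prkg1 kept 66.8% of its DMSO mean in siGFP cells (log2 fold change -0.57 ± 0.11, edgeR adjusted p = 0.00175) and 34.5% in siTGR5 cells (-1.51 ± 0.12, adjusted p = 3.72e-08). Prkca, the protein kinase C alpha gene, was at 145 to 154 CPM in siGFP DMSO and 117 to 134 in siGFP Bu, and at 136 to 141 and 100 to 104 CPM in siTGR5 cells. Its falls were small but well resolved, at -0.25 ± 0.05 and -0.43 ± 0.03 (adjusted p = 0.000959 and 4.4e-09). The kinase gene Tnik had -0.61 ± 0.12 and -0.69 ± 0.11.

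Names of transcription factors and chromatin proteins took in 16 genes. Of these, 6 fell and 1 rose in siGFP cells, and 11 fell and 1 rose in siTGR5 cells. The 1 that rose was Nrg1 with both siRNAs, a growth factor gene that entered this name pattern as well as the signalling one. The medians of the 16 were -0.26 and -0.24. Among the 139, 48.2% and 77.7% fell. Nfib, a nuclear factor I protein, was at 240 to 268 CPM in siGFP DMSO and 171 to 219 in siGFP Bu (-0.35, edgeR adjusted p = 0.000562), and at 219 to 242 and 169 to 183 CPM in siTGR5 cells (-0.37, adjusted p = 4.34e-07). The SoxD factors Sox5 and Sox6 had larger changes on fewer reads. Sox5 had -0.59 ± 0.10 and -1.16 ± 0.11, and Sox6 had -0.59 ± 0.16 and -1.24 ± 0.16. Foxp1, a forkhead repressor, had -0.03, not called, and -0.11 ± 0.04. Zfhx3, whose principal transcript spans 1019.0 kb, was not called in either (-0.13 and -0.09). Celf2, an RNA-binding regulator of splicing, had -0.41 ± 0.06 and -0.41 ± 0.04.

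The 14 genes of membrane traffic, transport and ion channels had medians of -0.21 and -0.36. Of them 8 and 11 were lower, beside 48.2% and 77.7% of the 139, and 1 (Slc7a11) was higher in siTGR5 cells. The exocyst tethers vesicles to the plasma membrane, and 2 of its subunit genes are this long. Exoc6b was at 106 to 116 CPM in siGFP DMSO and 93.2 to 103 in siGFP Bu, and at 84.4 to 92.8 and 61.6 to 69.8 CPM in siTGR5 cells, with -0.23 ± 0.04 and -0.41 ± 0.04. Exoc4 was at 137 to 156 CPM in siGFP DMSO and 152 to 181 in siGFP Bu (0.14 ± 0.06, not called), and at 129 to 159 and 119 to 132 CPM in siTGR5 cells (-0.21 ± 0.05, edgeR adjusted p = 0.00281). The cation channel gene Trpm3 was lower in siGFP cells (-0.42 ± 0.12, adjusted p = 0.0211) and at 0.01 in siTGR5 cells.

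The other 62 genes had medians of -0.19 and -0.39, with 27 and 47 lower and 2 and 1 higher. Lower shares of the 139 were 48.2% and 77.7%. Naaladl2 (chromosome 3, 23798102 to 25144261), a member of the glutamate carboxypeptidase II family, had the lowest log2 fold change of the 139 genes in siTGR5 cells. It was at 2.39, 2.67, 2.5, 2.95 and 2.93 CPM in siGFP DMSO and at 1.63, 1.53, 1.1 and 1.67 CPM in siGFP Bu. In siTGR5 cells it was at 2.47, 2.68, 2.7, 2.07 and 2.71 CPM with DMSO and at 1.06, 0.505, 0.566 and 0.6 CPM with Bu. The groups were apart, and Naaladl2 kept 55.1% of its DMSO mean in siGFP cells and 27.0% in siTGR5 cells. The log2 fold changes were -0.84 ± 0.14 (edgeR adjusted p = 0.00045) and -1.84 ± 0.19 (adjusted p = 1.59e-06). Immp2l (chromosome 12, 41024090 to 41955588, plus strand), a subunit of the inner mitochondrial membrane peptidase, was at 2.26, 2.26, 2.9, 2.26 and 2.26 CPM in siGFP DMSO and at 1.81, 1.86, 1.21 and 1.51 CPM in siGFP Bu. In siTGR5 cells it was at 2.47, 2.32, 2.08, 2.53 and 2.32 CPM with DMSO and at 1.03, 1.01, 0.809 and 0.628 CPM with Bu. Again no Bu library reached the DMSO range. Its log2 fold changes were -0.56 ± 0.15 (adjusted p = 0.0106) and -1.41 ± 0.16 (adjusted p = 4.82e-06).

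Abundant genes of the same set moved by smaller proportions with narrower errors. Atrnl1, an attractin-like membrane protein, was at 143 to 158 CPM in siGFP DMSO and 114 to 135 in siGFP Bu (-0.23 ± 0.05), and at 156 to 162 and 112 to 118 CPM in siTGR5 cells (-0.46 ± 0.03, edgeR adjusted p = 2.57e-09). Snd1, a staphylococcal nuclease-domain protein that binds RNA, was at 311 to 330 and 257 to 271 CPM in siGFP cells and at 277 to 306 and 223 to 247 CPM in siTGR5 cells. It had -0.29 ± 0.04 and -0.31 ± 0.04 (adjusted p = 3.75e-05 and 6.3e-06). The ArfGAP gene Agap1 had -0.30 ± 0.04 and -0.38 ± 0.03, and Atxn1, the ataxin 1 gene, had -0.57 ± 0.07 and -0.53 ± 0.08. Syn3, a synapsin, fell in siGFP cells only by the threshold (-1.17 ± 0.31, adjusted p = 0.0108), with a scattered DMSO group of 1.87 to 5.997 CPM that overlapped the Bu range of 0.802 to 2.31 CPM.

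**Figure D5:**
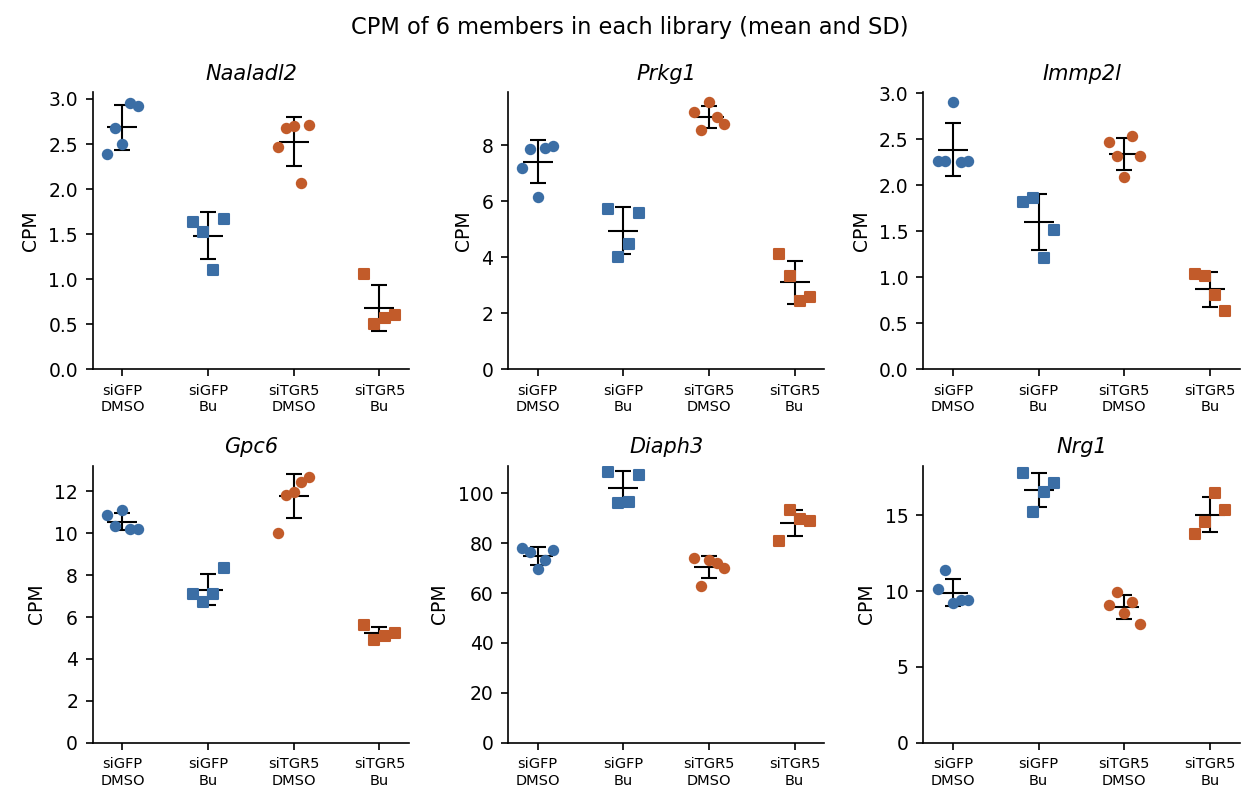
Normalised level in CPM (y axis) of Naaladl2, Prkg1, Immp2l, Gpc6, Diaph3 and Nrg1 in every library of the 4 groups (x axis), with points for libraries and bars for the mean and SD. The first 4 were lower with Bu, most of all in siTGR5 cells, and Diaph3 and Nrg1 were higher with Bu with both siRNAs.

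The genes that rose were few. Nrg1 (chromosome 8, 31814551 to 32884029) encodes neuregulin 1, a ligand of the ErbB receptors. It was at 10.1, 11.4, 9.18, 9.41 and 9.38 CPM in siGFP DMSO and at 17.8, 15.2, 16.5 and 17.1 CPM in siGFP Bu. With siTGR5 Nrg1 was at 9.1, 9.94, 8.54, 9.27 and 7.81 CPM with DMSO and at 13.8, 14.6, 16.5 and 15.4 CPM with Bu. All Bu libraries were above all DMSO libraries, with log2 fold changes of 0.76 ± 0.07 and 0.75 ± 0.07 (edgeR adjusted p = 3.23e-06 and 7.85e-07). Its locus is 1069.5 kb but its principal transcript 100.5 kb. Diaph3 (chromosome 14, 86655367 to 87141235, minus strand), a formin that nucleates actin filaments and acts in cytokinesis, was at 77.9, 76.5, 69.6, 73.2 and 77.3 CPM in siGFP DMSO and at 109, 96, 96.7 and 107 CPM in siGFP Bu. In siTGR5 cells Diaph3 was at 74.2, 62.9, 73.1, 72.3 and 69.9 CPM with DMSO and at 80.9, 93.3, 89.6 and 89.1 CPM with Bu. These groups were apart too, with 0.45 ± 0.05 and 0.33 ± 0.05 (adjusted p = 1.22e-05 and 6.64e-05). Diaph3 was the only one of the 112 genes with a principal transcript over 400 kb that was called higher in either Bu comparison.

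Fgf13, Oxr1 and Slc7a11 rose with 1 siRNA only by the threshold, and each has a principal transcript far shorter than its locus, of 72.3, 28.4 and 78.7 kb. Fgf13, an intracellular fibroblast growth factor homolog, was at 1.88 to 3.31 CPM in siGFP DMSO and 3.27 to 3.92 in siGFP Bu, ranges that overlap (0.54 ± 0.14, edgeR adjusted p = 0.0108). Oxr1, a factor in resistance to oxidative damage, was at 205, 201, 185, 198 and 207 CPM in siGFP DMSO and at 241, 225, 229 and 240 CPM in siGFP Bu, all above the controls (0.24 ± 0.04, adjusted p = 0.0007). In siTGR5 cells Oxr1 had 0.03 and its groups overlapped. Slc7a11 (chromosome 3, 49892526 to 50443614, minus strand) encodes the cystine and glutamate exchanger xCT, which supplies cysteine for glutathione. In siGFP cells it was at 5.89, 5.38, 5.97, 4.59 and 6.62 CPM with DMSO and at 5.31, 3.99, 4.73 and 6.45 CPM with Bu, overlapping ranges with -0.15, not called. In siTGR5 cells Slc7a11 was at 3.45, 3.8, 3.83, 3.29 and 3.49 CPM with DMSO and at 4.42, 6.42, 4.81 and 6.17 CPM with Bu. It was thus higher in every Bu library of siTGR5 cells (0.61 ± 0.11, adjusted p = 0.000635), from a lower starting level.

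The promoters of genes with opposite responses are shown to set their start regions side by side: Prkg1 and Immp2l fell, Diaph3 rose, and Slc7a11 rose in siTGR5 cells only by the threshold. Each run is the 250 bases upstream of a transcription start from RefSeq (GRCm38.p6), 5′ to 3′ on the strand of the gene. Capitals mark GGGCGG, the core of the GC box, and CCAAT, each searched on both strands (the reverse complements read CCGCCC and ATTGG). The regions are chr19:31765034-31765283 (minus strand) for Prkg1, chr12:41023840-41024089 (plus) for Immp2l, chr14:87141225-87141474 (minus) for Diaph3 and chr3:50443614-50443863 (minus) for Slc7a11.
Prkg1: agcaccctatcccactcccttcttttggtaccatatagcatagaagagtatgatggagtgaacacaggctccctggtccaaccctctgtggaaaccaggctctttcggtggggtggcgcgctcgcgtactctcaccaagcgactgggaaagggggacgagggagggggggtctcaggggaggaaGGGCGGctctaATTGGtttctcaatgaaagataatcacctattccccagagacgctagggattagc
Immp2l: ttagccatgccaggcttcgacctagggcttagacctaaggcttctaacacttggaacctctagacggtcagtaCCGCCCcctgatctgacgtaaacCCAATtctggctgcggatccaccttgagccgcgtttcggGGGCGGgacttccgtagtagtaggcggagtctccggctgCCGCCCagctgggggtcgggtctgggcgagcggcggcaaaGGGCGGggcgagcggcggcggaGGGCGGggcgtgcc
Diaph3: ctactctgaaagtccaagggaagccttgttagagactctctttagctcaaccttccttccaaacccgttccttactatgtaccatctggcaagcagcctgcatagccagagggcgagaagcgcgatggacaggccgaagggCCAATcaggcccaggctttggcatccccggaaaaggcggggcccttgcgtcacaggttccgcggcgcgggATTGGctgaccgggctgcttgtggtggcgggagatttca
Slc7a11: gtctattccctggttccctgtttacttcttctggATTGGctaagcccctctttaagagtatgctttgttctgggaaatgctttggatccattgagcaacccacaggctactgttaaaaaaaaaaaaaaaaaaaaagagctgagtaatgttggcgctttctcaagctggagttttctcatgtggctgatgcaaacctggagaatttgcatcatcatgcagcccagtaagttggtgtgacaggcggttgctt

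Immp2l held 5 GGGCGG and 1 CCAAT, and Prkg1 held 1 of each. Diaph3 held 2 CCAAT and Slc7a11 held 1, with no GGGCGG in either window. The G and C content was 66% for Immp2l, 58.8% for Diaph3, 55.2% for Prkg1 and 43.2% for Slc7a11, with 24, 14, 9 and 2 CpG dinucleotides. A promoter was matched for 104 of the 139 genes, and 85 of these starts lay within 200 bases of the principal transcript start. GGGCGG was found in 51.9% of the 104 and in 32.7% of the 32851 promoters of the whole RefSeq table, CCAAT in 31.7% and 33.8%, and TATAAA in 5.77% and 12.4%. The median G and C content was 63% against 52.4%, with a median of 15.5 against 6 CpG. The RefSeq table was not limited to genes expressed here or to 1 start per gene. It is thus not a matched background, and these differences cannot be assigned to gene span. The motif matches are descriptions of letters, not of binding.

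The difference between the Bu effects with the 2 siRNAs was tested directly over all 18 libraries. Of the 139 genes, 22 (15.8%) had a more negative Bu effect in siTGR5 than in siGFP cells and 2 a more positive one, against 0.649% and 0.724% (1.37% in either direction) of the 14783 genes tested by edgeR. These 22 were 22.9% of the 96 genes called lower. The median difference was -0.18, and 115 of the 139 were below 0, compared with 48.6% of all genes. Of the 22 genes, 21 were called lower with Bu in siTGR5 cells and 12 were not called lower in siGFP cells. The count of 22 was sensitive to single libraries. It was 11 without siTGR5 Bu 3 and 12 without siGFP Bu 1 or siTGR5 DMSO 1. Without siTGR5 Bu 2 or siTGR5 Bu 4 it was 13. The share of all genes called lower fell too, to 0.274%, 0.428%, 0.332%, 0.280% and 0.254% in these 5 fits, in that order. Without the 4 libraries with photoreceptor transcripts the count was 13 (background 0.169%), while the median was -0.23.

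The most negative differences were those of Naaladl2 (-0.996 ± 0.24, edgeR adjusted p = 0.0394), Prkg1 (-0.94 ± 0.17, adjusted p = 0.00937), Immp2l (-0.85 ± 0.22, adjusted p = 0.0469) and Gpc6 (-0.64 ± 0.11, adjusted p = 0.0046). Cdk14, a cyclin-dependent kinase of Wnt signalling, was at 31.2 to 36.2 CPM in siGFP DMSO and 29 to 33.2 in siGFP Bu, overlapping ranges with -0.15, not called. In siTGR5 cells it was at 33.3 to 35 and 20.7 to 24 CPM, far apart, with -0.58 ± 0.05 and a difference of -0.44 ± 0.07 (adjusted p = 0.0046). Fam172a was at 35.7 to 40.2 and 35.7 to 39.5 CPM in siGFP cells, which is no shift (0.00 ± 0.05), and at 40.2 to 42.7 and 30.4 to 33.1 CPM in siTGR5 cells (-0.38 ± 0.04). Its difference was -0.39 ± 0.06 (adjusted p = 0.00227).

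Further genes with a more negative effect in siTGR5 cells were Wwox, an oxidoreductase with WW domains (-0.44), Ptprm (-0.40), Ptprg (-0.42), Magi2 (-0.54), Gmds, the enzyme that starts GDP-fucose synthesis (-0.57), Exoc4 (-0.35) and Atrnl1 (-0.23). The difference for Oxr1 was -0.20. The 2 genes with a more positive effect were Fras1 (0.40 ± 0.10, edgeR adjusted p = 0.045) and Slc7a11 (0.76 ± 0.18, adjusted p = 0.0394), and both calls were lost in most fits that left out 1 library and without the libraries with photoreceptor transcripts (adjusted p = 0.114 and 0.261). For Slit3, Nrg1 and Celf2 the differences were -0.00 ± 0.07, -0.01 ± 0.11 and 0.00 ± 0.07.

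In the DMSO groups, siTGR5 against siGFP cells gave 36 lower and 28 higher genes of the 139, against 14.4% and 13.8% (together 28.3%) of the 14292 genes tested by edgeR. The median was -0.02, close to the 0.001 of all genes tested, and the calls were split between the directions. The groups did not overlap in 24 genes lower and 21 higher in siTGR5 cells, against 9.35% and 9.6% of all genes. Fras1 was higher, with 36.4 to 43.1 CPM in siGFP DMSO and 56 to 62.7 in siTGR5 DMSO (0.59 ± 0.05, adjusted p = 1.37e-07). Slit3 (0.28, adjusted p = 7.65e-05), Pcsk5, a proprotein convertase (0.33), Ppp2r2b, a regulatory subunit of protein phosphatase 2A (0.31), and Dmd (0.35) were higher as well. Exoc6b (-0.36), Lpp, a LIM protein of focal adhesions (-0.40), Kif26b, a kinesin (-0.44), Dst (-0.21) and Slc7a11 (-0.68 ± 0.10, adjusted p = 7.61e-05) were lower. This comparison shares its DMSO libraries with both Bu comparisons.

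The longest loci and those at fragile sites gave mixed values. The 13 genes over 1000 kb had medians of -0.32 and -0.52, with 9 and 8 lower and 1 and 1 higher, against -0.20 and -0.34 for the 61 genes of 400 to 500 kb. Fgfr2, a fibroblast growth factor receptor, has the longest span (2960.9 kb) through a single annotated transcript that runs over 48 other genes, while its principal transcript covers 102.5 kb. It averaged 14.9 and 11.2 CPM in siGFP cells and 18.0 and 14.5 CPM in siTGR5 cells (-0.40 ± 0.07 and -0.31 ± 0.06, edgeR adjusted p = 0.000847 and 0.000444). The genes known from common fragile sites included Dmd, Macrod2, Dlg2, Immp2l, Wwox and Nbea. Of 7 such genes, 3 fell in siGFP cells and 4 in siTGR5 cells (medians -0.20 and -0.20), against 48.2% and 77.7% of the 139. Macrod2, with a principal transcript of 1997.6 kb, had -0.07 and -0.20 at under 3 CPM, neither called. Dlg2 had -0.68 ± 0.29 (adjusted p = 0.0956) and 0.05, at 0.404 to 1.43 CPM over the 18 libraries, and was called in neither. Wwox was at 10.3 to 11.4 CPM in siGFP DMSO and 7.87 to 10.3 in siGFP Bu, with no overlap but no call (-0.20, adjusted p = 0.0641), and it fell in siTGR5 cells (-0.64, adjusted p = 4.22e-06).

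Genes of the machinery for elongation and DNA untangling were read beside the very long genes. Of 37 tested, 6 rose and 1 fell with Bu in siGFP cells, and 16 rose and 1 fell in siTGR5 cells, with medians of 0.05 and 0.10. Over all genes tested 14.3% rose and 13.8% fell in siGFP cells and 15.5% rose and 15.2% fell in siTGR5 cells, so the count of 6 in siGFP cells was near that background. Top2a, the topoisomerase of dividing cells, had log2 fold changes of 0.58 and 0.78. The other topoisomerase genes moved less: Top2b had 0.19 and 0.06, the second not called, and Top1 had 0.08 and 0.10, neither called. Leo1 and Ctr9 of the PAF1 complex had 0.30 and 0.26 and 0.14 and 0.19. Larp7, which holds P-TEFb in its inactive particle, had 0.32 and 0.22. Ccnt2, a cyclin of P-TEFb, fell (-0.52 and -0.33). Of 19 genes of transcription-coupled repair, 9 rose and 2 fell in siGFP cells and 10 rose and 1 fell in siTGR5 cells, to be read beside the same shares of all genes. Rpa2, a subunit of the single-strand binding protein, had 0.32 and 0.36, and Uvssa, which acts at stalled polymerases, had -0.33 and -0.25.

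Another group of transcripts moved with the very long genes. Of 24 tested transcripts known to be kept in the nucleus or to hold introns, 16 fell and 1 rose with Bu in siGFP cells, and 12 fell and 1 rose in siTGR5 cells, where 13.8% and 15.2% of all genes tested fell. Their mean log2 CPM was 5.57 to 5.72 in siGFP DMSO and 5.13 to 5.47 in siGFP Bu, and 5.64 to 5.996 and 5.41 to 5.59 in siTGR5 cells, with no overlap in either. With this score as a covariate, 10 of the 139 genes were called lower in siGFP cells (background 1.75%) instead of 67. The median of the 139 was -0.19 instead of -0.22. The score itself moved with Bu, so this fit cannot separate the score from Bu. In siTGR5 cells 97 genes were called lower with the score (background 9.82%) instead of 108, with a median of -0.40. Photoreceptor transcripts summed to 16.4 to 130 CPM in siGFP DMSO and 16.4 to 62.3 in siGFP Bu, and to 15.1 to 63.5 and 15.7 to 30.4 CPM in siTGR5 cells. Without the 4 libraries with the highest sums, 50 genes were called lower in siGFP cells (background 13.0%, median -0.17) and 107 in siTGR5 cells (background 14.2%, median -0.39). Summed spermatogonial markers were 95.5 to 105 and 91.2 to 104 CPM in siGFP cells and 81.5 to 93.0 and 90.5 to 95.2 CPM in siTGR5 cells, overlapping with both siRNAs. Of 5 such markers tested, 1 fell in siGFP cells and 1 rose and 1 fell in siTGR5 cells. Summed Sertoli and Leydig markers, nearly all of them Wt1, were lower with Bu without overlap, at 230 to 260 and 199 to 211 CPM in siGFP cells and at 242 to 257 and 210 to 241 CPM in siTGR5 cells. Of 5 such markers tested, 1 fell with each siRNA. Summed neuronal markers, most of them Map2, were 69.7 to 86.7 and 77.2 to 86.7 CPM in siGFP cells, and 72.7 to 76.7 and 64.5 to 71.2 CPM in siTGR5 cells, with no overlap in the latter. Of the neuronal markers 1 of 5 rose in siGFP cells and 2 of 3 fell in siTGR5 cells. The neuronal list includes Syt1, itself among the 139 genes, and Map2 spans 267 kb, so it is not separate from long genes. The part of these groups in the fall of the very long genes was not tested.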

How the data were processed

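The authors sequenced single-end libraries of poly(A) RNA, mapped reads to mm10 with Hisat2 and Bowtie2 and counted uniquely aligned reads per gene with HTSeq on the Ensembl annotation, as the study describes. Versions in the submitters' processing notes are Bowtie2 2.1.0, DESeq2 1.0.19 and bcl2fastq 2.17.1.14, and TopHat2 is named there too. The strand setting of the counting was not given in the sources used here. The deposited raw counts of 18 libraries were used. The 36 normalized columns, which the authors deposited as a signal scaled per library and per length, were not used, nor were the authors' log2 fold changes and p-values for 3 comparisons.

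Counts were tested with edgeR 4.0.16 (R 4.3.3), with TMM factors, filterByExpr (minimum count 10, minimum total 15) and a quasi-likelihood F-test over all genes with Benjamini-Hochberg adjustment, and called at an adjusted p under 0.05. All 139 genes passed the filter in each comparison. The SE of a log2 fold change is its size divided by the square root of F. CPM were scaled by TMM, and logarithms were taken of CPM plus 0.5. For single genes, exact two-sided permutation of the libraries was run as well. Spans and coordinates are those of the deposited table (GRCm38), and transcripts are APPRIS principal isoforms of GENCODE M21. Of the 139 genes, 133 have the same start and end there. Promoters came from RefSeq GRCm38.p6. Scripts were tested on simulated data. Python 3.11.15, pandas 2.3.3 and matplotlib 3.10.9 were used.

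The genes and all lists were chosen with earlier results of these data known. Genes named with values were those with the smallest p or the largest fold change in each comparison, the longest, the most abundant, the fragile-site genes and those next to the thresholds. Gmds, Foxp1, Kirrel3, Magi2, Pard3, Robo1, Robo2, Sox5, Sox6, Tenm3, Tnik and Zfhx3 were added after their values were seen, and role groups follow gene names. Alternatives were DESeq2 1.42.0, RLE and upper-quartile factors, other filters, all 18 libraries in 1 fit, the replicate number as a block, leaving out each library, leaving out libraries with photoreceptor transcripts (a sum over 3 times the median) and a nuclear-transcript score as covariate. The use of principal transcript spans was chosen after seeing the data. Results for some genes are not reported here.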

Additional observations from a re-analysis of the deposited data

Results flagged for a closer look

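Of 228 groups of 4 or 5 libraries examined, 16 (7.02%) held a library far from the others, where chance gives about 1 in 20. In siGFP DMSO these were library 3 for Abca13 (0.796 CPM) and Immp2l (2.90 CPM) and library 5 for Sh3gl2 (0.913 CPM). In siGFP Bu they were library 1 for Exoc6b (103 CPM) and library 2 for Dock4 (12.5 CPM) and Nbea (48.2 CPM). In siTGR5 DMSO, library 1 stood apart for Dlg2 (0.679 CPM), Pcsk5 (20.6 CPM) and Tenm4 (20.9 CPM), and library 2 for Dock4 (18.7 CPM). Library 3 of that group did so for Fgfr2 (16.4 CPM) and Wwox (11.4 CPM). Library 5 did so for Kif26b (37.3 CPM), Snd1 (277 CPM) and the mean log2 CPM of nuclear-retained transcripts (5.996). In siTGR5 Bu, library 1 stood apart for Ptprd (17.3 CPM).

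The effect of Bu differed between the siRNAs for 24 of the 139 genes by edgeR's test of the difference. For the genes reported here the difference on the log2 scale, siTGR5 minus siGFP, was -0.996 for Naaladl2, -0.94 for Prkg1, -0.85 for Immp2l, -0.64 for Gpc6, -0.57 for Gmds and -0.54 for Magi2. It was -0.44 for Wwox, -0.44 for Cdk14, -0.42 for Ptprg, -0.40 for Ptprm, -0.39 for Fam172a, -0.37 for Smyd3 and -0.35 for Exoc4. For Bbs9, Camk1d, Bcas3, Trappc9 and Kalrn it was -0.33, -0.32, -0.31, -0.30 and -0.30. For Atrnl1, Ptprk and Oxr1 it was -0.23, -0.22 and -0.20. In the other direction it was 0.40 for Fras1 and 0.76 for Slc7a11.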

How the results depend on the processing

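Calls in siGFP cells and in the difference depend on single libraries or on the nuclear-transcript score, whereas their medians kept their sign. In siGFP cells the score did not overlap between Bu and DMSO libraries, so a fit with it cannot separate the score from Bu. Calls over all genes fell as well, from 1980 to 250 lower and from 2043 to 337 higher. In siGFP cells 67 genes were lower, but 10 with the nuclear score as covariate and 105 with 1 Bu effect over both siRNAs, where the median was -0.31. The count higher was 2 with the score. In the difference, 22 lower became 13 without the libraries with photoreceptor transcripts (background 0.169%) and 14 with the score (background 0.304%). The 2 higher became 0 in both. For siTGR5 against siGFP in DMSO the median with the score was 0.0060. By the deposited median transcript length, the longest quintile differed from the shortest by -0.072 and -0.033. The span classes, with far fewer genes over 400 kb, differed by -0.28 and -0.41. Leaving out 1 library gave 54 to 74 lower and 4 to 6 higher in siGFP cells (median -0.25 to -0.18). In siTGR5 cells it gave 103 to 108 and 3 to 3 (-0.40 to -0.37). For the difference it gave 11 to 22 and 0 to 2 (-0.22 to -0.15). Between the siRNAs in DMSO it gave 29 to 36 and 22 to 27 (-0.031 to 7.89e-05). The shares of all genes called lower were 11.4% to 14.6%, 12.1% to 15.6%, 0.254% to 0.923% and 12.2% to 15.5%. With the replicate block, 70 were lower and 4 higher in siGFP cells (median -0.21), and 105 and 3 in siTGR5 cells (-0.38). The block gave 24 and 2 in the difference (-0.18) and 36 and 29 in DMSO (-0.02). Shares of all genes called lower were then 14.9%, 14.1%, 0.859% and 16.2%. Same-numbered libraries did not deviate together (correlations -0.197 to 0.177), so the numbers were not taken as pairs. Of 1359 values for 69 named results, 1282 kept their direction and side of the threshold, 47 lost the call, 14 gained it and 16 changed sign. All 16 were uncalled in siGFP cells. With the score they were Dlg2 0.24, Dst 0.00725, Exoc4 -0.039, Myo16 -0.13 and Rasgef1b -0.36, and with 1 Bu effect Exoc4 -0.038, Glis3 -0.071 and Ptprk -0.057. Without the photoreceptor libraries they were Macrod2 0.067, Nbea 0.034 and Sh3gl2 0.053. Without siGFP Bu 2 it was Macrod2 at 0.037. Sh3gl2 was -0.19 to 0.093 without single libraries (above 0 without siGFP DMSO 5, Bu 1 or Bu 4) and 0.081 with the block. The cause was not tested. Sh3gl2, Myo16 and Dlg2 rest on few reads, with means under 1 CPM.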
